A study of Mus musculus with 6 samples.

Results

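The interferon-inducible and major histocompatibility complex (MHC) genes of mouse muscle were followed after castration. Members were taken by a rule on gene symbols, which was set with earlier results of these data known. It took MHC genes (symbols that start with H2-), interferon-induced families (Ifi, Ifit, Ifitm, Oas, Gbp, Isg and Mx) and interferon regulatory factors (Irf). It also took the signalling factor Stat2, and Xaf1, Rsad2 and Usp18. The rule gave 100 genes of the 22180 measured by a probe set that names a single gene. Of these, 33 were MHC genes, 60 were interferon genes and 7 matched by name but were counted in neither list. RefSeq lists 9 members as transcribed pseudogenes, among them Gbp11, Mx1 and Mx2, and 2 as pseudogenes, and all are counted as genes here. A further 18 symbols that fit the rule appeared only in probe sets shared by several genes.

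The samples were tibialis anterior muscles, a fast muscle of the lower leg, from male C57Bl/6 mice aged 18 weeks, hybridised to Affymetrix whole-transcript arrays. The sham group (n = 3) had a sham operation and carries the diet label fasted, and the castrated group (n = 3) lost the testes and carries the diet label refed. Surgery was at 11 weeks of age, 7 weeks before sampling, and all mice went without food overnight. The sample protocols describe a meal of 30 minutes for all mice and a final 4 hours without food, whereas the series text describes the meal for some mice only. Surgery and diet label separate the arrays identically and cannot be told apart, so each difference below is castrated and labelled refed minus sham and labelled fasted. Values are log2 expression per probe set, on which 1 unit is a doubling.

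Interferons bind receptors that activate JAK kinases and, through them, Stat2, which acts with Irf9 at the interferon-stimulated response element (ISRE) of their target genes. The targets include antiviral enzymes, guanylate-binding proteins and DNA sensors. MHC class I molecules show peptides from inside nearly every cell to cytotoxic T cells. MHC class II molecules show peptides from engulfed material to helper T cells and are made mainly by dendritic cells, macrophages and B cells, under the regulator Ciita. Resting muscle fibres make little MHC class I, and its rise on fibres is a known feature of inflammatory muscle disease.

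The promoters of both families differ in their letters, and 5 are shown for genes whose values are given below. Each is the 150 bases before the RefSeq start (assembly GRCm38.p6), 5′ to 3′ on the gene's strand, with capitals marking the motif. In the MHC class II genes H2-Aa (chr17:34287824-34287973, minus strand) and H2-Eb1 (chr17:34305717-34305866, plus strand) the capitals mark the Y box ATTGG or its reverse complement. In Ifit1 (chr19:34640739-34640888, plus strand), Isg15 (chr4:156200819-156200968, minus strand) and Ifi205 (chr1:174031756-174031905, minus strand) they mark the ISRE core, which is GAAA, a pair of any bases and GAAA again, or its reverse complement.
H2-Aa: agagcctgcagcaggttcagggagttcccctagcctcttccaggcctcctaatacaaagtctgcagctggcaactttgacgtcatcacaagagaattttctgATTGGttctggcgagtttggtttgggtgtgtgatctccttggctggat
H2-Eb1: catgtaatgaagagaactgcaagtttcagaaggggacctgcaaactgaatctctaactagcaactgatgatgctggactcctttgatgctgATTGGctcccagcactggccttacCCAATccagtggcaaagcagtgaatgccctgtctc
Ifit1: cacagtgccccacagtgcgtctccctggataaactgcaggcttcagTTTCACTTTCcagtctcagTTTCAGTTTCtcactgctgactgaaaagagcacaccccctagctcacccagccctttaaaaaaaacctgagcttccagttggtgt
Isg15: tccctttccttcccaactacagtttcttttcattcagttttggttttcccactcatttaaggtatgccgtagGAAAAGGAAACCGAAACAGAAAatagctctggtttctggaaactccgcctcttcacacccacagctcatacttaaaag
Ifi205: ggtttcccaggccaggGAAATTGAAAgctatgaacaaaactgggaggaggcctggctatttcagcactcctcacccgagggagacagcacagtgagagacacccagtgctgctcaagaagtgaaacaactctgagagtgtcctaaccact

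RefSeq promoters were at hand for 74 of the 100 members, 88 promoters in all. Over the 250 bases before the start and on both strands, the ISRE core was in 44.2% of 52 promoters of interferon genes, in 3.7% of 27 MHC promoters and in 2.98% of all 32851 promoters. The Y box was in 88.9% of MHC, 32.7% of interferon and 33.8% of all promoters. The core of the gamma-interferon element, TTCNNNGAA, was in 17.3% of interferon, 11.1% of MHC and 7.02% of all promoters. These are matches of letters and not measured binding sites, and the 3 motifs can overlap one another.

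No member passed the test across all genes (limma, Benjamini-Hochberg adjusted p under 0.05), against 3 of all 22180 genes, or 0.0135%. The smallest adjusted p of a member was 0.391, for Gbp10. At an unadjusted p under 0.05 there were 7 members, or 7%, against 7.13% of all genes. Of these 5 were higher and 2 lower, against 3.62% and 3.51% of all genes. A difference over 0.5 in either direction was seen for 4 members (Gbp10, H2-M10.5, Ifi203-ps and Oas1d), against 1.24% of all genes. The groups did not overlap for 9 members, 6 higher and 3 lower in castrated muscle, against 12.8% of all genes (5.73% higher and 7.02% lower). The members as a whole therefore stood near or under the background of the arrays by p and by separation of the groups. Among the brighter members both shares were higher than in all genes of that level, but they rest on few genes. Of 41 at or above the 50th percentile of mean level, 8 (19.5%) did not overlap, against 14.8% of all genes at that level. These were 7 of 26 interferon genes (26.9%) and 1 of 10 MHC genes (10%). The 8 include Oas2, whose difference was only −0.042. An unadjusted limma p under 0.05 was found for 5 of the 41 (12.2%), against 6.58%, and 0 of the 41 passed the adjusted threshold. The median difference was −0.018 over the 100 members and −0.0056 over all genes, and 44 members were higher, against 48.5% of all genes.

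**Figure D1:**
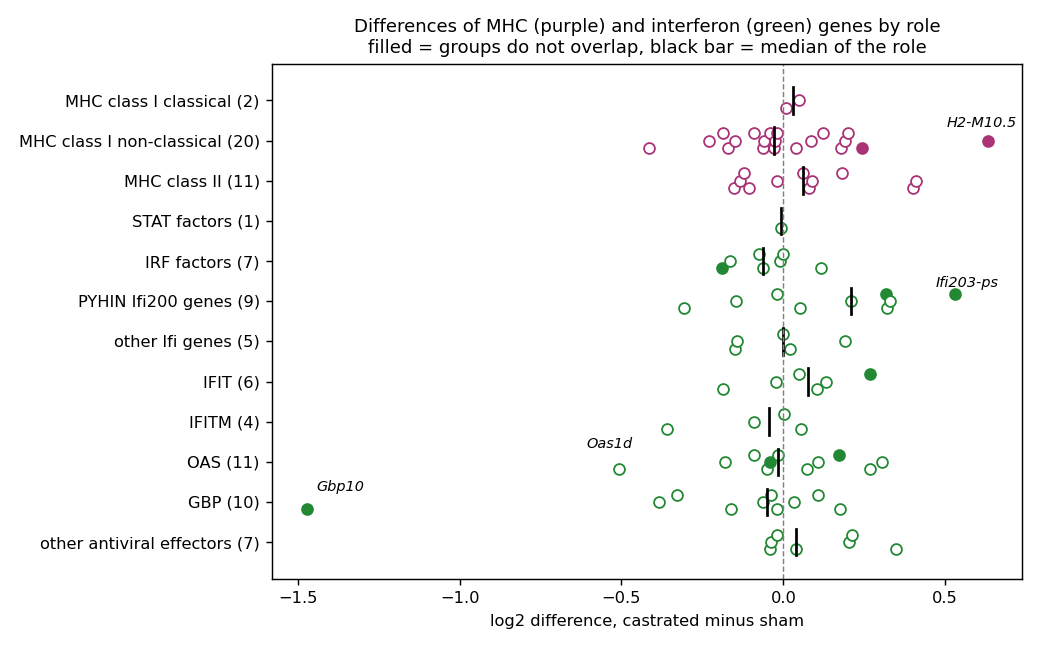
Log2 difference, castrated minus sham, for each of 33 MHC (purple) and 60 interferon (green) genes, placed by role with the number of genes in brackets. Filled points are genes whose groups do not overlap, and black bars are role medians. Most points lie within 0.5 of 0, Gbp10 lies at −1.47, and the medians fall on both sides of 0.

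The arrays limit what could be seen for many members. Of the 100, 59 lay under the 50th percentile of mean level over all genes and 38 under the 25th percentile, and the detection of dim probe sets over background was not tested. The median SD within groups was 0.19 for members and 0.15 for all genes. For 97 members the unadjusted 95% interval of the difference lay inside a change of 2-fold in either direction, and for 67 it lay inside 1.41-fold. For all genes these shares were 99% and 77.3%. The 3 members with an interval that reached beyond 2-fold were Gbp10, H2-M10.5 and H2-Ab1. Array medians over all probe sets were 5.040, 5.036 and 5.039 in sham and 5.095, 5.052 and 5.080 in castrated muscle, where all were higher. Medians over the genes tested overlapped, at 5.40 to 5.43 in sham and 5.41 to 5.47 in castrated muscle. Arrays correlated at 0.9904 to 0.9924 within and 0.9895 to 0.9916 between groups. The 8 muscle fibre markers lay between percentiles 99.8 and 100, as the tissue label implies.

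The classical MHC class I gene H2-K1, which encodes the K heavy chain that shows peptide, read 7.22, 7.31 and 7.04 in sham and 7.14, 7.41 and 7.17 in castrated muscle. The arrays of both groups were interleaved. The difference was 0.050 (standard error 0.12, 95% interval −0.22 to 0.32). H2-K2, which RefSeq lists as a transcribed pseudogene, differed by 0.0084. The other classical gene of this strain, H2-D1, shared its probe set with H2-Q2, which read 5.45 ± 0.17 in sham and 5.43 ± 0.18 in castrated muscle (SD, n = 3 each).

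Among the partners of MHC class I, B2m, the light chain of every class I molecule, read 11.01, 10.97 and 11.00 in sham and 11.09, 11.22 and 11.09 in castrated muscle. Its groups did not overlap, and its difference of 0.14 (standard error 0.094) did not pass (limma adjusted p = 0.798). Tap1, a subunit of the peptide transporter, also had groups that did not overlap, at 6.32, 6.42 and 6.28 against 6.50, 6.47 and 6.46. Its difference was 0.14 (standard error 0.093, limma adjusted p = 0.797). The other transporter subunit, Tap2, differed by −0.034, the immunoproteasome subunits Psmb8, Psmb9 and Psmb10 by −0.049, −0.036 and −0.19, and the peptide-trimming enzyme Erap1 by −0.20. Of the antigen-processing list 21 of 22 genes were measured, and 9 were higher, 12 lower and 0 past the threshold in either direction. Erap1 and Psmb10 had the smallest p of the list and did not pass (limma adjusted p = 0.762 and 0.764), whereas B2m and Tap1 were chosen after their values were seen.

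Non-classical MHC class I genes, which have narrower expression and roles such as showing fixed ligands to natural killer or unconventional T cells, numbered 20. Of these 8 were higher and 12 lower, with a median of −0.028, and 0 passed. The median was 0.046, with 11 higher, without castrated sample 2, and −0.059 without sham sample 3. H2-T23 (Qa-1), a ligand of inhibitory receptors on natural killer cells, read 5.20, 5.80 and 5.40 in sham and 5.23, 5.35 and 5.26 in castrated muscle. Sham sample 2 was the highest array, and the difference of −0.18 was −0.018 without it. H2-T24 read 5.84, 5.92 and 5.75 against 6.11, 6.14 and 5.99. All castrated arrays lay above all sham arrays, by a difference of 0.24 (standard error 0.10, limma adjusted p = 0.691).

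The H2-M10 genes are a set of class I genes known from vomeronasal neurons. H2-M10.5 had the largest difference of an MHC gene, with 2.98, 2.99 and 3.11 in sham and 3.23, 3.75 and 4.00 in castrated muscle. The groups did not overlap, and the difference was 0.63 (standard error 0.18, limma adjusted p = 0.579). Its mean lay at the 11.7th percentile. With 1 array left out the difference ran from 0.46 to 0.85. The related H2-M10.6 overlapped and had a difference of the opposite sign, −0.23.

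Several MHC class II genes varied widely between mice of a group. H2-Ab1, the beta chain of the I-A molecule, read 7.81, 7.77 and 7.09 in sham and 8.63, 7.49 and 7.76 in castrated muscle. Its partner H2-Aa, the alpha chain, read 7.07, 6.74 and 6.41 in sham and 7.62, 6.91 and 6.92 in castrated muscle. For both genes castrated sample 1 was the highest and sham sample 3 the lowest of the 6 arrays, and the groups overlapped. H2-Ab1 differed by 0.40 (standard error 0.29, limma adjusted p = 0.811) and H2-Aa by 0.41 (standard error 0.22, limma adjusted p = 0.757). Without castrated sample 1 these were 0.066 and 0.18, and without sham sample 3 they were 0.17 and 0.25. The SD within groups of H2-Ab1 was 0.51, at the 99.3rd percentile of all genes, and that of H2-Aa was 0.37, at the 96.4th.

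H2-Eb1, the beta chain of the I-E molecule, had the same highest array, with 6.90, 6.90 and 6.59 in sham and 7.27, 6.56 and 6.80 in castrated muscle. Its difference of 0.081 turned to −0.12 without castrated sample 1 and to −0.024 without sham sample 3. Its partner H2-Ea has a promoter deletion in C57BL/6 mice and is not transcribed in that strain, and it read 4.20 ± 0.16 in sham and 4.05 ± 0.20 in castrated muscle (SD, n = 3 each). H2-DMa, part of the exchange factor that loads peptide, read between 5.33 and 5.46 in sham and between 5.43 and 5.52 in castrated muscle. Its difference was 0.059 (standard error 0.095). Of the 11 MHC class II genes 6 were higher and 5 lower, with a median of 0.059 that was −0.042 without castrated sample 1 and −0.026 without sham sample 1. These counts include H2-Ea (lower) and H2-Pb (higher), which RefSeq lists as a transcribed pseudogene and a pseudogene.

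Markers of the cells that make MHC class II are given beside these values. Ciita, the class II regulator, read 5.26, 5.59 and 5.47 in sham and 5.67, 5.38 and 5.95 in castrated muscle, and castrated sample 3 rather than sample 1 was its highest array. The protease Ctss, which trims the class II chaperone, was highest in castrated sample 1 (6.67) and sham sample 1 (6.66). The summed linear signal of 10 macrophage markers was 1607, 938 and 969 in sham and 1288, 852 and 1017 in castrated muscle. It was highest in sham sample 1, and castrated sample 1 came next. The variable marker Cd68 weighs on this sum and read 9.20, 7.70 and 7.76 in sham and 8.77, 7.47 and 8.54 in castrated muscle. After subtracting a gene's mean, the macrophage median was 0.30, −0.072 and −0.043 in sham and 0.14, −0.17 and −0.17 in castrated muscle. For 5 measured dendritic cell markers the sum was 320, 271 and 253 in sham and 289, 261 and 263 in castrated muscle. For 4 measured B cell markers it lay between 107 and 113 in sham and between 105 and 112 in castrated muscle. In castrated muscle sample 1 had the highest sums of macrophage and dendritic cell markers, and their part in the class II values was not tested. Of these lists 2 of 10, 1 of 5 and 1 of 4 markers were higher in castrated muscle, with medians of −0.081, −0.051 and −0.058. All 5 general leukocyte markers were lower, with a median of −0.066, and none of the markers in these lists passed. In whole muscle, fewer cells of a type and less RNA per cell cannot be told apart.

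**Figure D2:**
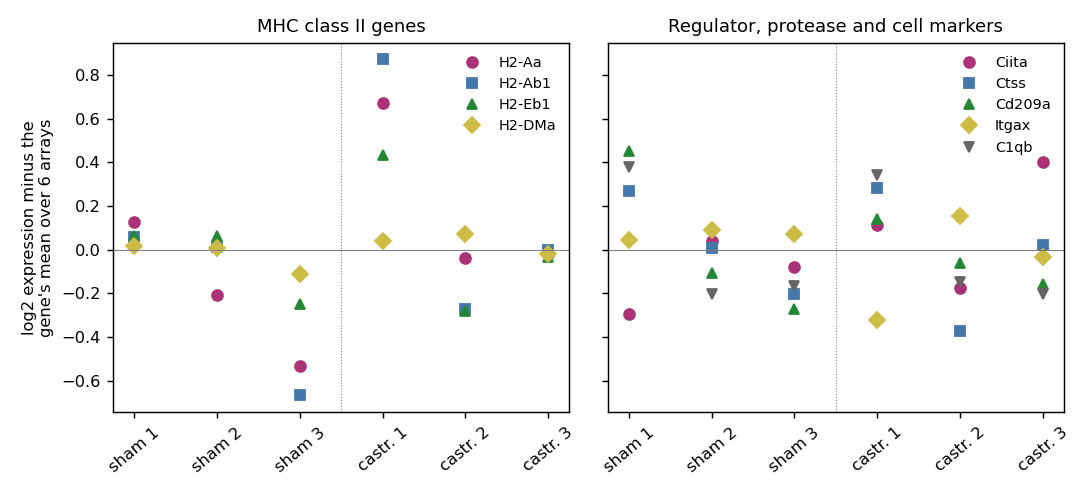
Log2 expression minus the gene's mean over the 6 arrays, 1 point per gene and array, for 4 MHC class II genes (left) and for the regulator Ciita, the protease Ctss and 3 cell markers (right). H2-Aa, H2-Ab1 and H2-Eb1 are highest in castrated sample 1, whereas Ciita is highest in castrated sample 3 and Cd209a and C1qb in sham sample 1.

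The transcription factors of the interferon response gave differences under 0.2 in size, none of which passed. Stat2 read 5.80, 5.91 and 5.91 in sham and 5.80, 5.96 and 5.84 in castrated muscle, and the groups were interleaved. Its difference was −0.0076 (standard error 0.098, 95% interval −0.23 to 0.21). Irf9, the DNA-binding partner of Stat2, differed by −0.064 (95% interval −0.28 to 0.15). Irf3, which is activated by viral sensors, differed by −0.0093, and Irf7, the interferon-induced factor that amplifies the response, by 0.12 (95% interval −0.21 to 0.44).

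Irf1, an activator of MHC class I and other gamma-interferon targets, read 6.30, 5.98 and 6.29 in sham and 6.05, 6.12 and 5.91 in castrated muscle. The groups overlapped, and the difference was −0.16 (standard error 0.12). Irf2, which binds the same elements and can oppose Irf1, read 7.67, 7.64 and 7.69 against 7.37, 7.59 and 7.48. All castrated arrays of Irf2 lay below all sham arrays, by a difference of −0.19 (standard error 0.099, limma adjusted p = 0.751). Irf8, a factor of the myeloid lineage, differed by −0.0008. Of the 7 measured factors 1 was higher, 6 were lower and 0 passed, with a median of −0.064 that ran from −0.11 without castrated sample 1 to −0.0031 without sham sample 2.

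Upstream of these factors, 13 receptor, kinase and inhibitor genes were measured and 0 passed. The kinase Tyk2, which serves the type I interferon receptor, read 6.25, 6.35 and 6.43 in sham and 6.46, 6.56 and 6.71 in castrated muscle. Its groups did not overlap and it differed by 0.23 (standard error 0.11, limma adjusted p = 0.716). Ifngr2, a chain of the gamma-interferon receptor, differed by 0.19 (standard error 0.10, limma adjusted p = 0.758), and the type I receptor chains Ifnar1 and Ifnar2 differed by −0.024 and 0.024. Of this list 7 genes were higher and 6 lower, with a median of 0.024. The groups of 4 (30.8%) did not overlap, 3 higher and 1 lower, against 12.8% of all genes. Of all genes at or above the 50th percentile of mean level, where all but 1 of the 13 lay, the share was 14.8%. The lower gene, Jak1, differed by only −0.053. An unadjusted limma p under 0.05 was found for 0 of the 13, against 7.13% of all genes.

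Of 17 nucleic acid sensors and relays 16 were measured, and 10 were higher and 6 lower, with 0 past the threshold. The groups did not overlap for 5 (31.2%), 3 higher and 2 lower, against 12.8% of all genes. Eif2ak2 (PKR), an interferon-induced kinase that halts translation on double-stranded RNA, read 5.81, 6.00 and 5.77 in sham and 5.26, 5.56 and 5.41 in castrated muscle. The groups did not overlap, and the difference was −0.45 (standard error 0.12, limma adjusted p = 0.520). Myd88, the adaptor of Toll-like and interleukin-1 receptors, read 6.72, 6.77 and 6.77 against 6.47, 6.51 and 6.35. It too had no overlap and differed by −0.31 (standard error 0.095, limma adjusted p = 0.642).

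Genes of the Ifi200 family, DNA-binding proteins with a PYHIN domain that lie side by side in the genome, had the largest role median, 0.21. Of 9 measured genes 6 were higher and 3 lower, and 0 passed. Ifi203-ps, listed by RefSeq as a pseudogene, read 6.30, 6.12 and 6.31 in sham and 6.87, 6.93 and 6.52 in castrated muscle. All castrated arrays lay above all sham arrays, a 1.45-fold higher signal that did not pass (log2 difference 0.53, standard error 0.13, limma adjusted p = 0.486). Ifi205 read 7.69, 7.29 and 7.37 against 7.85, 7.70 and 7.76. The highest sham array lay just under the lowest castrated array, and the difference was 0.32 (standard error 0.12, limma adjusted p = 0.685).

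Ifi207 differed by 0.32 as well, with overlapping groups (limma adjusted p = 0.749). A probe set shared by Ifi203, its pseudogene and a further locus read 5.90 ± 0.19 in sham and 6.21 ± 0.12 in castrated muscle, and another shared by Ifi211 and Ifi204 read 6.64 ± 0.26 and 6.95 ± 0.24 (SD, n = 3 each). Probe sets of such close copies can measure one another's transcripts, so these are not independent measurements. Aim2, a cytosolic DNA sensor of the same domain family, read 4.17, 4.41 and 3.93 in sham and 4.49, 4.57 and 4.73 in castrated muscle. Its groups did not overlap, and the difference of 0.43 (standard error 0.14, limma adjusted p = 0.658) did not pass. Aim2 was chosen after its values were seen, and its mean lay at the 26.9th percentile. The family median was 0.026 without castrated sample 2, and 6 of the 9 genes lay under the 25th percentile of mean level.

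**Figure D3:**
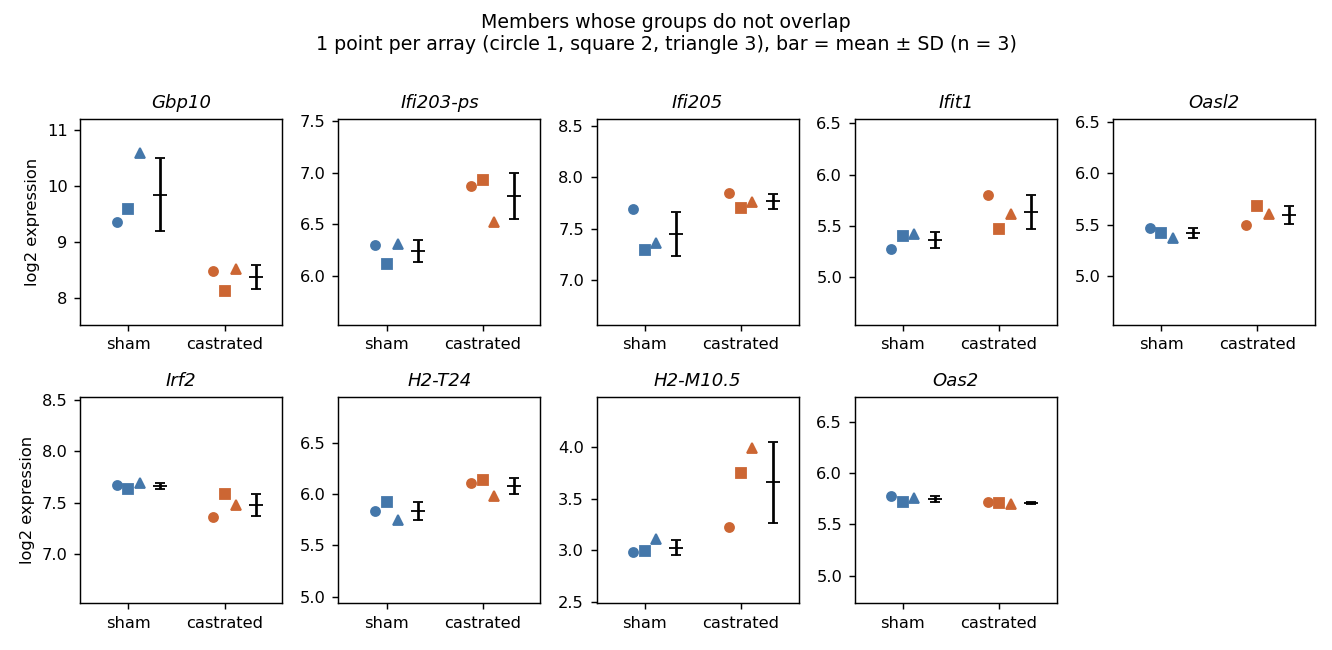
Log2 expression of the 9 members whose groups do not overlap, with 1 point per array, sham in blue and castrated in orange, and the mean ± SD (n = 3) as a black bar. Gbp10 lies between 9.37 and 10.59 in sham and between 8.13 and 8.51 in castrated muscle, while the groups of Oas2 are separated by a narrow gap.

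Gbp10 showed the largest difference of any member. It encodes a guanylate-binding protein, a family of interferon-induced GTPases that attack membranes around microbes. Gbp10 read 9.37, 9.59 and 10.59 in sham and 8.48, 8.13 and 8.51 in castrated muscle. The sham arrays were all above the castrated arrays, and sham sample 3 stood about 1 unit above the other sham arrays. The signal was 2.77-fold lower in castrated muscle (log2 difference −1.47, standard error 0.28, 95% interval −2.10 to −0.84). It ranked 5 by absolute difference and 28 by p among 22180 genes and did not pass (limma adjusted p = 0.391). Only 16 genes, or 0.0721%, differed by more than 1 in either direction. Without sham sample 3 the difference was −1.10, and with any other array left out it lay between −1.71 and −1.35. Its SD within groups was 0.48, at the 99.1st percentile.

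The other GBP genes had smaller differences, none of which passed. In the GRCm38.p6 gene table Gbp6 and Gbp11 follow Gbp10 directly. Gbp6 read 3.60, 3.36 and 4.01 in sham and 2.86, 3.75 and 3.21 in castrated muscle, and Gbp11 read 2.79, 2.75 and 3.59 against 2.58, 2.68 and 2.88. Both had overlapping groups and differed by −0.38 and −0.33, and both were dim, with mean levels at percentile 13.1 and 7.9 of all genes. Without sham sample 3 they differed by −0.21 and −0.053, and Gbp6 differed by −0.18 without castrated sample 1. The neighbours on the other side, Gbp4 and Gbp9, differed by −0.16 and 0.033. Gbp7 and Gbp3, which lie in another cluster, differed by 0.18 and −0.018, and the probe set shared by Gbp2 and Gbp2b read 6.72 ± 0.060 in sham and 6.66 ± 0.30 in castrated muscle (SD, n = 3 each). Gbp9 and Gbp3 changed sign with an array left out. Of 10 GBP genes 3 were higher and 7 lower, with a median of −0.051 that was −0.11 without sham sample 1. How far probes of Gbp10 measure its close relatives was not tested.

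IFIT genes, whose products bind viral RNA, had 4 of 6 higher and a median of 0.075. Leaving out castrated sample 2 gave a median of −0.014 (2 higher), leaving out sham sample 3 gave −0.0059, and leaving out castrated sample 1 gave 0.0034. It reached 0.15 when sham sample 1 was left out. Ifit1, whose promoter holds the pair of ISRE cores shown above, read 5.28, 5.40 and 5.42 in sham and 5.80, 5.47 and 5.62 in castrated muscle. The groups did not overlap, by a difference of 0.27 (standard error 0.11, limma adjusted p = 0.696). Ifit3 overlapped and differed by −0.023, and the Ifit1-like genes Ifit1bl1 and Ifit1bl2 differed by −0.19 and 0.13. Among IFITM genes, which block virus entry at membranes, Ifitm3 read 9.27, 9.01 and 9.11 in sham and 9.11, 9.17 and 9.11 in castrated muscle. It was a bright member, at the 94.9th percentile, with a difference of 0.0032 (95% interval −0.23 to 0.24). Ifitm2 differed by −0.36 (standard error 0.17, limma adjusted p = 0.724), Ifitm1 by 0.055 and Ifitm6 by −0.092.

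OAS genes make or resemble the enzymes that activate RNase L, and 5 of 11 were higher and 6 lower. Oasl2 read 5.47, 5.42 and 5.37 in sham and 5.50, 5.68 and 5.60 in castrated muscle, without overlap (difference 0.17, standard error 0.097). Oas2 also did not overlap, although its difference was only −0.042. Oas1d had the largest difference, −0.51, with 2.92, 2.02 and 2.75 in sham and 2.10, 2.03 and 2.04 in castrated muscle. Its mean lay at the 4th percentile, and its groups overlapped. The related Oas1c, with its mean at the 17th percentile, differed by 0.27. The probe set shared by Oas1a and Oas1g read 3.68 ± 0.47 in sham and 4.07 ± 0.22 in castrated muscle (SD, n = 3 each).

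Among other interferon targets, Isg15, a ubiquitin-like protein, read 4.32, 4.03 and 4.14 in sham and 4.45, 4.16 and 4.52 in castrated muscle. Its groups overlapped, with a difference of 0.21 (95% interval −0.082 to 0.50), and its mean lay at the 24.7th percentile. Usp18, the protease that removes Isg15, differed by −0.039, and Rsad2 (viperin), an antiviral enzyme, by −0.042 (95% interval −0.30 to 0.21). Xaf1, a pro-apoptotic target, differed by 0.20 (standard error 0.11, limma adjusted p = 0.752). Mx1, an antiviral GTPase that carries an inactivating deletion in C57BL/6 mice, differed by −0.018 and Mx2 by 0.35, and both were dim. Among other Ifi genes Ifi27 differed by −0.14, Ifi35 by 0.022, Ifi44l by −0.15 and Ifi30, a lysosomal reductase used in class II processing, by 0.19. A dimmer probe set of Ifi35 differed by 0.23, with groups that did not overlap. Of 35 measured genes on a further list of interferon-inducible genes 20 were higher, 15 lower and 0 past the threshold, with a median of 0.031 and a range from −0.19 to 0.26. The smallest p there belonged to Phf11b (0.24) and Phf11d (0.26), neither of which passed (limma adjusted p = 0.748 and 0.785).

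**Figure D4:**
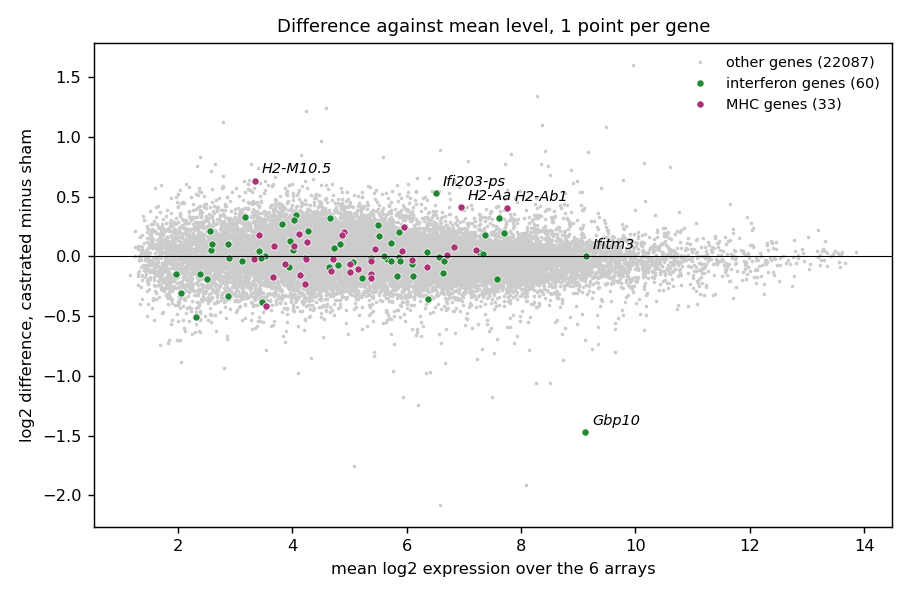
Log2 difference, castrated minus sham, against mean log2 expression over the 6 arrays, for 60 interferon genes (green), 33 MHC genes (purple) and all other genes (grey). The members lie within the cloud of all genes, except Gbp10 at −1.47.

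MHC and interferon genes were set side by side. Of 33 MHC genes 16 were higher (48.5%) with a median of −0.020, and of 60 interferon genes 27 were higher (45%) with a median of −0.0085. The medians differed by −0.011, and the SD within groups of that difference per array was 0.046. After subtracting a gene's mean, the MHC median per array was −0.0074, 0.024 and −0.086 in sham and 0.032, −0.0059 and −0.034 in castrated muscle. The interferon median was 0.028, −0.0093 and −0.0094 in sham and −0.011, 0.020 and −0.033 in castrated muscle. Both lists overlapped between groups. The groups did not overlap for 2 MHC genes (6.06%) and 7 interferon genes (11.7%), against 12.8% of all genes. Interferon genes with an ISRE core in the promoter window had a median of 0.050 (12 of 22 higher), and those without it had a median of −0.0008 (10 of 21 higher). Those with the gamma-interferon element core had a median of −0.064 (3 of 9 higher), and those without it had a median of 0.034 (19 of 34 higher). These splits cover the 43 interferon genes with a promoter at hand, and Gbp10 is not among them.

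The remaining members matched the symbol rule but were counted in neither list. They are H2-Ke6, a steroid dehydrogenase gene that lies within the MHC, the Irf2-binding proteins Irf2bp1, Irf2bp2 and Irf2bpl, Isg20l2, and the Ifitm relatives Ifitm5 and Ifitm10. Of these 7 genes 1 was higher and 6 were lower, with differences from −0.18 to 0.15, and for none did the groups separate. H2-Ke6 read 7.98, 7.59 and 7.62 in sham and 7.54, 7.63 and 7.46 in castrated muscle, with overlap.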

How the data were processed

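The authors deposited log2 expression values per probe set, already normalized. The submitters' processing notes name Partek, and the normalization is not given in the sources used here. Of 41345 probe sets 23521 name 1 gene, 1814 several and 16010 none. Symbols were updated through Entrez identifiers (23328 matched, GRCm38.p6), and the brightest probe set stood for a gene. The 6 arrays were compared in limma 3.58.1 (R 4.3.3; lmFit, eBayes, no covariate) with Benjamini-Hochberg adjustment over 22180 genes, after a test on simulated data. Intervals of 95% are unadjusted. Named were a set of preset members, the 3 members with the smallest p per role, and 2 genes per pathway list. Others, such as members without overlap and the neighbours of Gbp10, were chosen after their values were seen or for their role. Members and lists were chosen with earlier results of these data known. The labels describe each sample as from a mouse and number it within its group, and p-values cover only the spread among these arrays, which may be partly technical. Deviations of same-numbered samples had weak positive correlations (0.076, 0.033 and 0.047), whereas other pairs ran from −0.045 to 0.0018. Numbers were not used as pairs in the main fit, and a fit with the number as a block is given below. Alternatives covered normalization, dim genes, probe sets, the replicate block, variance priors, array weights and each left-out array.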

Additional observations from a re-analysis of the deposited data

How the results depend on the processing

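In each alternative run, 0 members passed the threshold over all genes. The count over all genes was 3 and became 9 without genes under the 25th percentile of brightness and 16 without those under the 50th, 10 with a trended and robust variance prior and 0 without variance moderation, and 3 to 4 with 1 array left out. With the replicate number as a block it was 2, and no member's call changed. Centring on array medians left 9516 of the 22180 genes higher in castrated muscle, against 10757 in the main fit. The MHC and interferon medians were then −0.041 and −0.030. Without genes under the 25th percentile, which leaves out 13 MHC and 25 interferon genes, 10 MHC and 15 interferon genes were higher. Without those under the 50th percentile 8 of 10 MHC genes (80%) and 12 of 26 interferon genes (46.2%) were higher, against 40.8% of all genes at that level. The MHC median was then 0.054 in place of −0.020, and the MHC minus interferon difference 0.059 (50th percentile). With 1 array left out the MHC median ran from −0.024 to 0.043 and the difference between the lists from −0.020 to 0.061, both highest without castrated sample 2, so neither sign is firm. The interferon median ran from −0.030 to 0.0044, and it was above 0 without sham sample 2. The counts of genes higher ran from 14 to 18 for MHC and from 25 to 30 for interferon genes. Of the 45 members chosen by the naming rule 15 changed sign in an alternative, all of these with an array left out, and of all 100 members 44 did so with an array left out. The adjusted p of Gbp10 ran from 0.0658 (genes under the 50th percentile left out) to 0.770 (no variance moderation). The precision is limited by the 3 arrays of each group, and signal over background was not measured.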
